A study of Mus musculus with 17 samples.

Results

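The DNA methylation writers and readers are described here over 5 groups of cells sorted from the embryonic mouse cortex. They are the methyltransferases Dnmt1, Dnmt3a and Dnmt3b, the Dnmt1 cofactor Uhrf1, and the methyl-CpG-binding domain proteins Mbd1, Mbd2 and Mbd3. Members were all probe sets (each a set of short array probes that reports 1 transcript) annotated with 1 of these 7 symbols. There were 20 of them among the 45101 probe sets on the array and the 34945 that were tested, and the 7 genes stand among 18193. Dnmt3a and Mbd1 had 5 probe sets each, Dnmt1 had 3, Uhrf1, Dnmt3b and Mbd2 had 2 each, and Mbd3 had 1.

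The series compared subtypes of radial glia, the neural stem cells of the developing cortex, on 17 expression arrays. All cells came from embryos of hGFAP eGFP mice, in which the human GFAP promoter drives a green fluorescent protein, so every group carries the transgene and GFP brightness reports that promoter. The groups were E18 GFP+ Prominin+ cells (n = 4), E14 GFPhigh Prominin+ cells (n = 4), E14 GFPlow Prominin+ cells (n = 3), E14 GFPhigh cells (n = 3) and E14 GFPlow cells (n = 3). Prominin is a surface protein of the apical membrane of radial glia. The labels of the last 2 groups name no Prominin gate, and these groups are called ungated below. The labels do not say whether samples came from separate litters or pooled embryos, and the spread behind each p-value may therefore be technical in part.

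DNA methylation is placed on CpG sites anew by Dnmt3a and Dnmt3b, and Dnmt1 copies it onto the new strand after each replication, guided by Uhrf1, which binds the hemimethylated CpGs left by replication. Mbd1 and Mbd2 bind methylated CpGs and recruit repressors, whereas mammalian Mbd3 binds methylated DNA poorly and acts within the NuRD deacetylase complex. In the embryonic cortex the system is known for holding astrocyte genes such as Gfap silent until gliogenesis and Dnmt3a stays in use in neurons.

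Promoter windows are shown for the maintenance pair and for Dnmt3a because Uhrf1 and Dnmt3a are the members whose levels differed by GFP, and Dnmt1 is the enzyme that Uhrf1 guides. Each window runs from 250 bases before to 50 bases after an annotated start, from RefSeq on GRCm38.p6, and 5 of the 7 genes matched an entry. Capitals mark matches to any of the E2F-type motifs TTTCCCGC, TTTGGCGC, TTTCGCGC and TTTGCCGC, searched on both strands. E2F factors are the classical activators of S phase genes. Uhrf1 has 2 annotated windows, Dnmt1 3 and Dnmt3a 3, and the ones shown were chosen after the search: the 1 with a match for Uhrf1 and for Dnmt1, and the most CpG-rich for Dnmt3a. The windows are at chr17:56304063-56304362 (plus strand, Uhrf1), chr9:20952574-20952873 (minus strand, Dnmt1) and chr12:3806910-3807209 (plus strand, Dnmt3a).
Uhrf1: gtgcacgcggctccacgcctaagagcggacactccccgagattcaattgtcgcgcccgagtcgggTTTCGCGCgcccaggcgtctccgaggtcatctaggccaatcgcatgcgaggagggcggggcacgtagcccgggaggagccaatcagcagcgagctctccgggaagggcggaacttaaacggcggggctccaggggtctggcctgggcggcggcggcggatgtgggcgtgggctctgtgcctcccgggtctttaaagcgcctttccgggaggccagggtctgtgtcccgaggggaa
Dnmt1: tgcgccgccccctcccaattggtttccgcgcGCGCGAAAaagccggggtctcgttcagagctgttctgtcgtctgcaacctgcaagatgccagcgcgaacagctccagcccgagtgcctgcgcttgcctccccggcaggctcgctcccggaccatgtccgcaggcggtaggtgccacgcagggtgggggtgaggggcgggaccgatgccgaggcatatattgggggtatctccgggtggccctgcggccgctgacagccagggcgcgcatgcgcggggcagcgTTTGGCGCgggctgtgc
Dnmt3a: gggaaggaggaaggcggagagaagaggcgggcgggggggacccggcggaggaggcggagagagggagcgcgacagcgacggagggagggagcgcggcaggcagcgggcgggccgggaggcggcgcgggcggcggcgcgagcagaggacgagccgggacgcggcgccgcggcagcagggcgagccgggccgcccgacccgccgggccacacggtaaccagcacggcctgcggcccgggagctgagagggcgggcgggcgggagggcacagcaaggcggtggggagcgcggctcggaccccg
The Uhrf1 window held 1 match, at position −185 from the start. The Dnmt1 window held 2, at −219 on the opposite strand and at 33 on the gene's own strand, both counted from the start of the window shown. Another annotated Dnmt1 start, with its window at chr9:20952930-20953229 (minus strand), lies upstream, so both matches are downstream of that start. The Dnmt3a window held 0. The other windows of these genes, and those of Dnmt3b and Mbd3, held 0 as well. Of 5 member genes with a window 2 had a match, against 2.6% of the 27025 genes and 2.26% of the 32851 windows in the table. The same motifs were in a window of 6 of 13 S phase genes, 3 of 8 maintenance partners (Hells, Cdca7 and Lig1), 0 of 9 NuRD subunits and 0 of 7 neuronal genes. The windows shown held 33 CpGs for Uhrf1, 33 for Dnmt1 and 47 for Dnmt3a, against a median of 7 over all windows. Each motif itself contains a CpG, and the shares above were not matched for CpG content or for windows per gene. A match is a description of the sequence and not a binding site.

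Levels below are log2(signal + 16) after quantile normalisation of the deposited signals, and differences on this scale understate the change of dim genes. A group mean at or below 5.96, the 90th percentile of 19 genes not expected in cortex, is called not above background, and no fold is given there. A call is a Benjamini-Hochberg adjusted p under 0.05 in limma over all 34945 probe sets, and errors of differences are standard errors. Radial glia markers were above background in every group (10 of 10), Prom1, which encodes Prominin, averaged 8.86 in E18 cells, 10.92 and 10.18 in E14 Prominin+ GFPhigh and GFPlow cells, 10.79 in ungated GFPhigh cells and 8.62 in ungated GFPlow cells, and 0 of 6 endothelial markers passed background in any group. Neuronal markers were also above background in every group (11 to 13 of 13), and at most 1 marker each of microglia, pericytes and erythroid cells was. Cajal-Retzius markers stood out in E14 Prominin+ GFPlow cells, with 7 of 7 above background and a summed signal of 3534 to 4871, against 222 to 1720 over the other groups' arrays. The 11 Prominin+ arrays and ungated GFPhigh replicate 1 were labelled with the MessageAmp II kit and the other 5 arrays with an Affymetrix kit. The 7 E14 Prominin+ arrays had higher 18S rRNA signals, 2110 to 6147 against 114 to 1396 on the other arrays. Their Gapdh 3′ minus 5′ difference was 0.54 to 2.29 on the log2 scale, against −0.25 to 1.00 on the other arrays.

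Of the 20 probe sets, 14 were above background in every group, 3 in some groups and 3, all of Mbd1, in none. By the highest-mean probe set of each gene, Uhrf1 varied most between groups, with a mean of 10.10 in ungated GFPhigh cells and 6.90 in ungated GFPlow cells, and the means of Dnmt1 stayed between 9.57 and 10.28. Neighbours in the order of group means did not overlap by array for Uhrf1 between ungated and Prominin+ GFPhigh cells. The same held for Dnmt3a between Prominin+ and ungated GFPlow cells. How often such gaps occur over all genes is not given here.

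**Figure D1:**
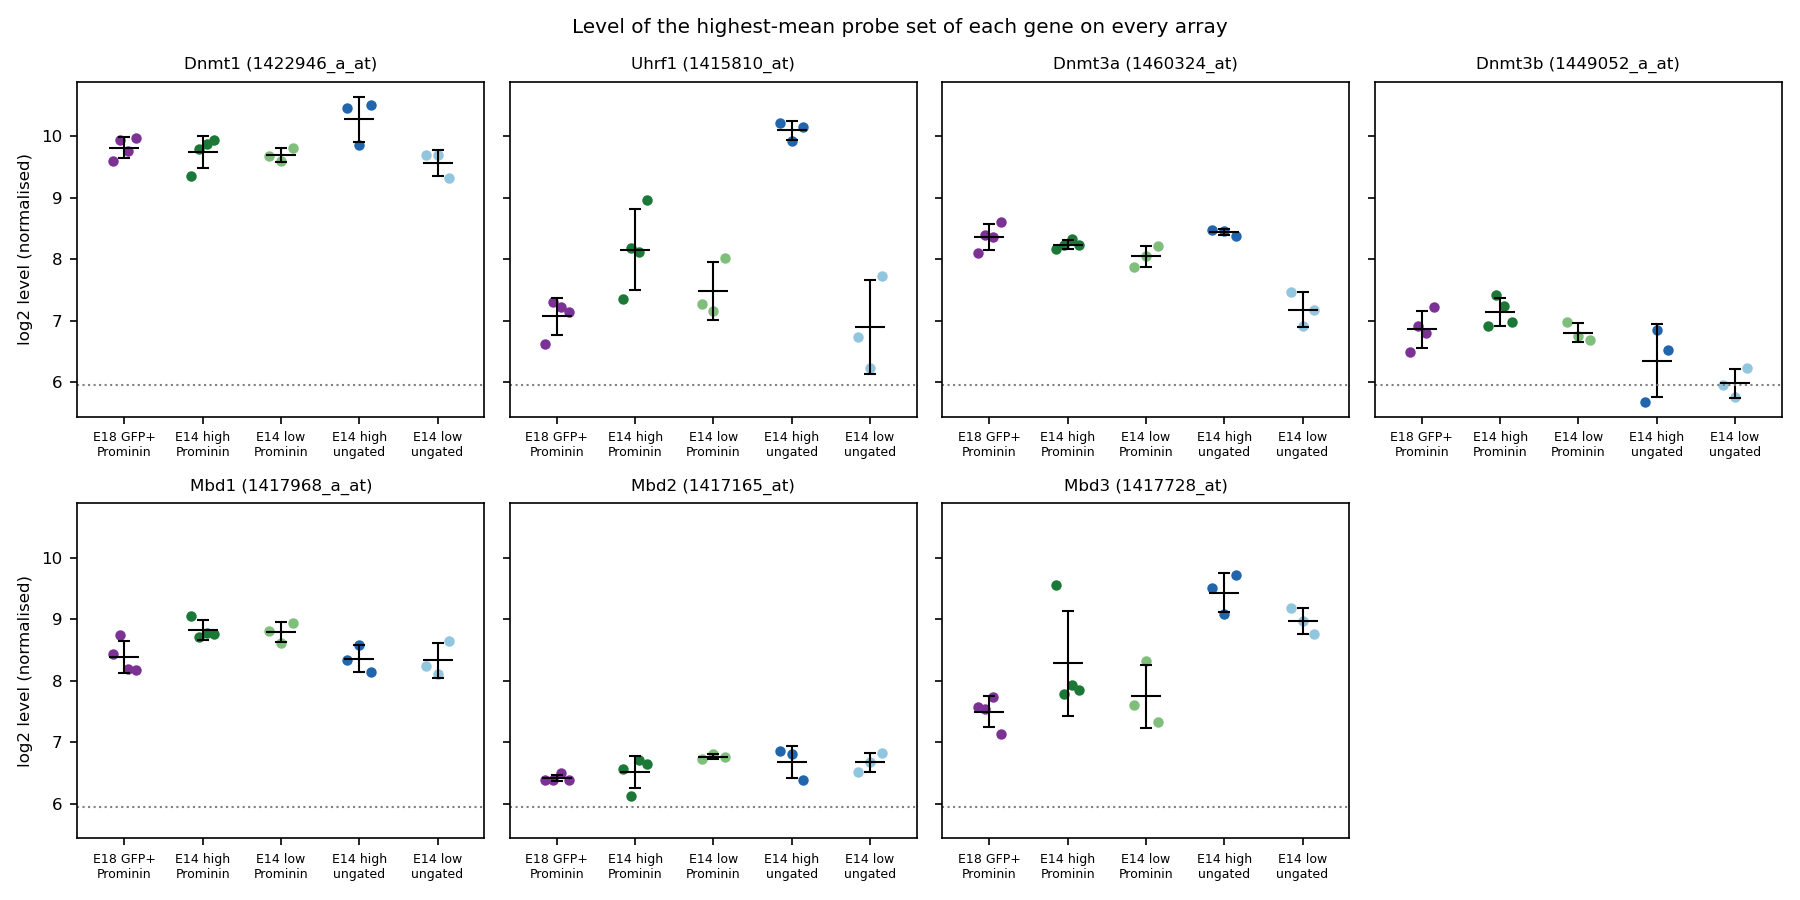
Log2 level of the highest-mean probe set of each of the 7 genes (y axis) by group (x axis), with 1 point per array, a bar at the group mean, whiskers of 1 SD and a dotted line at the background level of 5.96. Uhrf1 stands highest on the 3 ungated GFPhigh arrays, at 9.92 to 10.21, and the 4 E18 arrays lie between 6.63 and 7.30.

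Uhrf1 was the member that differed most between GFPhigh and GFPlow cells when no Prominin gate was named. Probe set 1415810_at read 10.21, 9.92 and 10.16 in ungated GFPhigh cells, against 6.73, 6.23 and 7.73 in ungated GFPlow cells. The groups did not overlap, and the difference was 3.20 ± 0.37 (adjusted p = 0.00199), a 9.18-fold higher level in GFPhigh cells. The second Uhrf1 probe set, 1415811_at, averaged 8.73 in GFPhigh and 5.95 in GFPlow cells, where it was not above background, with a difference of 2.79 ± 0.49 (adjusted p = 0.0105). This second call was lost with a pseudocount of 1 (adjusted p = 0.0772).

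Among Prominin+ cells the same Uhrf1 probe set 1415810_at read 7.36, 8.18, 8.13 and 8.97 in GFPhigh cells, against 7.28, 7.16 and 8.02 in GFPlow cells. The groups overlapped. The difference of 0.67 ± 0.33 was not called (95% interval −0.05 to 1.40, adjusted p = 0.485). The difference between the 2 GFP contrasts, Prominin+ minus ungated, was −2.53 ± 0.52 (adjusted p = 0.00750), and it was called in all 21 alternative analyses of it. For 1415811_at the fitted value was −2.36 ± 0.53 (adjusted p = 0.0136), but 3 of its 4 groups were not above background, at means of 5.69, 5.26 and 5.95, so its size is not a measured difference.

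Dnmt1, the maintenance enzyme itself, showed no called difference in the 7 comparisons at its 3 probe sets, but some came past the threshold under other settings. Its probe set 1422946_a_at read 10.47, 9.86 and 10.51 in ungated GFPhigh cells, against 9.69, 9.70 and 9.33 in ungated GFPlow cells. The groups did not overlap, and the difference was 0.71 ± 0.25 (95% interval 0.12 to 1.29, adjusted p = 0.125). All 3 Dnmt1 probe sets were called with a pseudocount of 64, with adjusted p-values of 0.0467 (1422946_a_at), 0.0307 (1435122_x_at) and 0.0158 (1447877_x_at). In the fit of all 17 arrays 1422946_a_at and 1447877_x_at were called (adjusted p = 0.0270 and 0.0121), and 1447877_x_at also without the dimmest 40% of probe sets (0.0266) and without ungated GFPlow replicate 3 (0.0400). Between Prominin+ and ungated GFPhigh cells Dnmt1 1422946_a_at differed by −0.54 ± 0.20 (adjusted p = 0.0641), and it was called lower with a pseudocount of 64 (0.0249), without the dimmest 40% (0.0338) and without ungated GFPhigh replicate 2 (0.0156). Among Prominin+ cells the Dnmt1 difference was 0.04 ± 0.18 (95% interval −0.34 to 0.43). The names ending in _x_at mark probe sets with probes similar to other transcripts, so 2 of the 3 Dnmt1 sets are less specific.

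In counts, 4 of the 20 member probe sets were called higher in ungated GFPhigh than in ungated GFPlow cells, 2 each of Uhrf1 and Dnmt3a, and 0 were lower; over all probe sets 11.9% were called and 5.81% were called higher. The groups did not overlap at 10 of the 20, against 30.8% of all probe sets. Among Prominin+ cells limma called 0 of 20, with 1 at an unadjusted p under 0.05 (Mbd1 1430838_x_at, beside 11.4% of all probe sets), and 0.561% of all probe sets were called. Here 2 of the 20 did not overlap, against 11.4% of all probe sets. The median difference over the 7 genes was 0.19 in the Prominin+ contrast and 0.47 in the ungated one, beside medians of −0.0036 and −0.01 over all genes. The contrasts share no arrays.

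**Figure D2:**
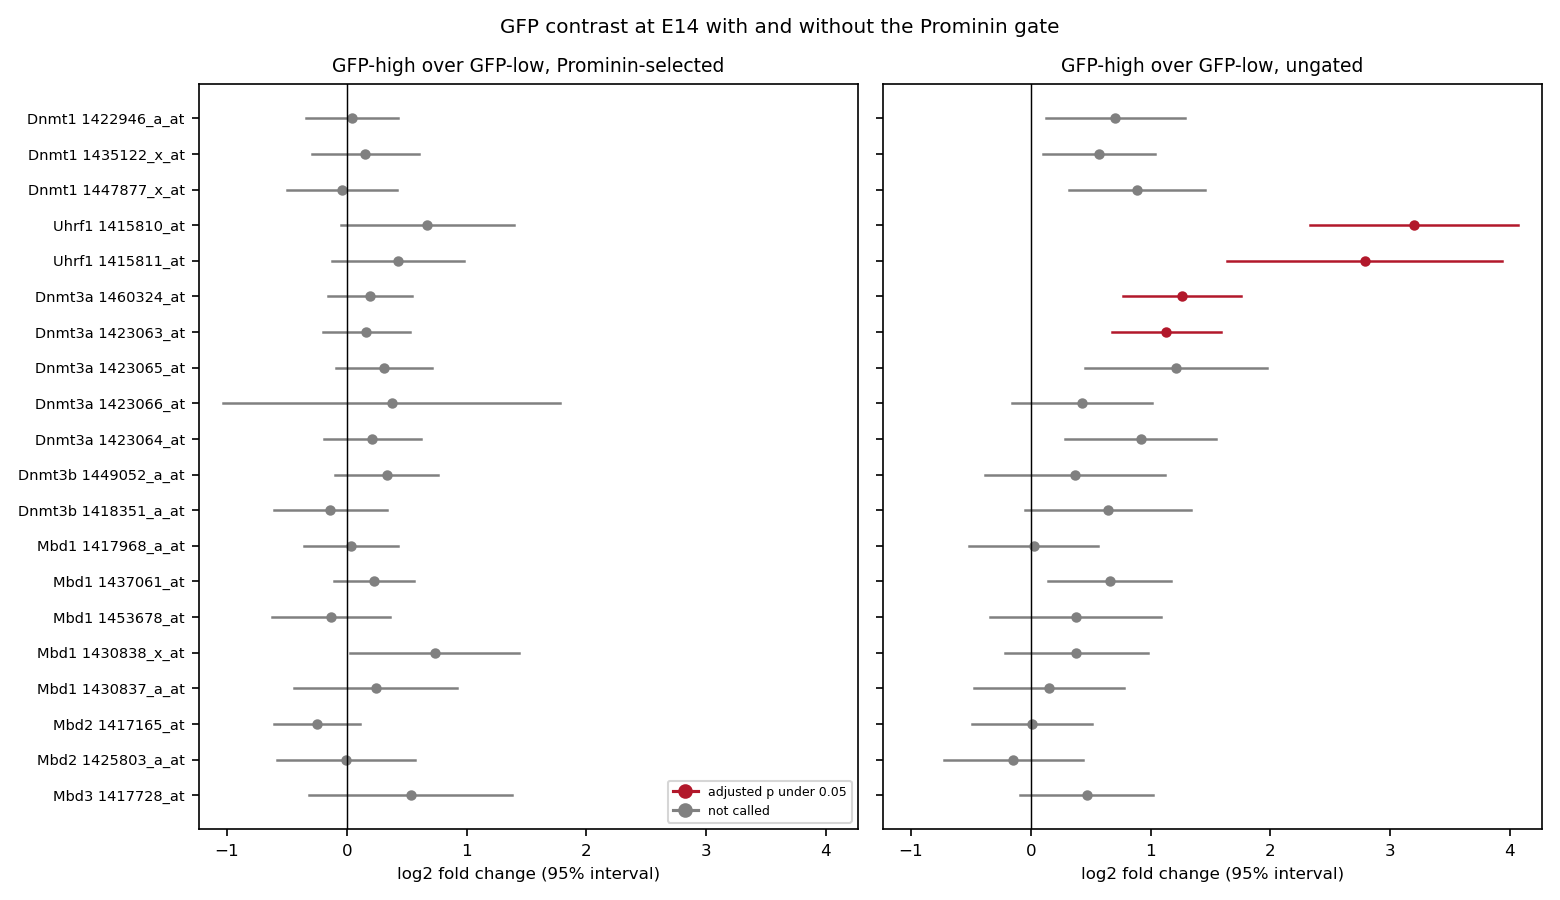
Log2 fold change of GFPhigh over GFPlow E14 cells (x axis) with its 95% interval for each of the 20 member probe sets (rows), among Prominin+ cells on the left and ungated cells on the right. Red marks an adjusted p under 0.05: 0 probe sets among Prominin+ cells and the 4 of Uhrf1 and Dnmt3a among ungated cells.

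The partners of maintenance methylation were split in the ungated contrast. Of 8 measured partners 4 rose in GFPhigh cells and 0 fell: the chromatin remodeller Hells by 2.74 ± 0.32, its activator Cdca7 by 2.72 ± 0.27, the sliding clamp Pcna by 1.75 ± 0.18 and the Okazaki-fragment ligase Lig1 by 1.71 ± 0.22 (adjusted p = 0.00194, 0.00115, 0.00145 and 0.00281). Over all genes 6.83% were called higher in this contrast. The other 4 partners were not called, and the list's median was 0.95 beside −0.01 over all genes. Among Prominin+ cells limma called 0 of 8 partners, 3 of them at an unadjusted p under 0.05 and beside 0.726% of all genes called, with Lig1 at 0.71 ± 0.17 (adjusted p = 0.0951) and Cdca7 at 0.65 ± 0.21 (adjusted p = 0.220), and a median of 0.39. The difference between the GFP contrasts was called for the same 4 genes, at −2.43 for Hells, −2.06 for Cdca7, −1.28 for Pcna and −1.004 for Lig1.

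Replication genes and cell type markers moved with these members. All 15 S phase genes were higher in ungated GFPhigh cells, with a median of 2.16, and their summed signal was 20723 to 21614 on ungated GFPhigh arrays, against 4432 to 6735 on ungated GFPlow arrays. All 10 radial glia markers were higher there as well, with sums of 28126 to 32846 against 5792 to 8161. All 13 postmitotic neuron markers were lower, with sums of 8085 to 8710 against 36646 to 44608, beside 7.26% of all genes called lower. All 6 basal progenitor markers were called higher in ungated GFPhigh cells too. Among Prominin+ cells limma called 0 of 15 S phase genes, but 11 were at an unadjusted p under 0.05, and the median was 0.55. Of the neuronal markers 5 of 13 were called lower there, with Stmn2 at −1.72 ± 0.22. Of the Cajal-Retzius markers 5 of 7 were called lower, with Reln at −2.79 ± 0.26. Called as well were 1 of 10 radial glia and 1 of 6 basal progenitor markers, beside 0.726% of all genes. In bulk samples, fewer cells of a type and less RNA per cell cannot be told apart, and the part of these cell types in the Uhrf1 and Dnmt3a differences was not tested.

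**Figure D3:**
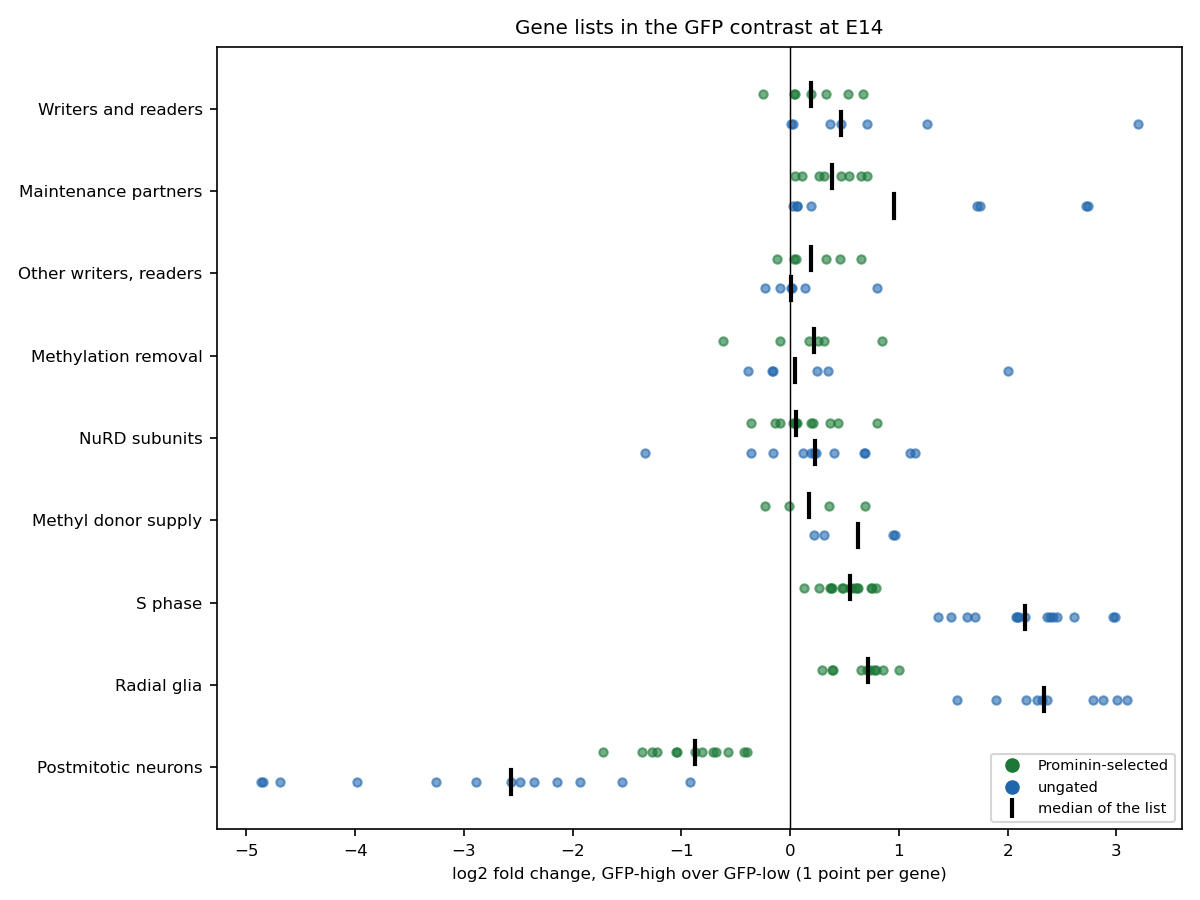
Log2 fold change of GFPhigh over GFPlow E14 cells (x axis), with 1 point per gene in each list (rows), Prominin+ in green above ungated in blue, and a black bar at each list's median. The S phase genes have a median of 0.55 among Prominin+ cells and 2.16 among ungated cells, and the 7 writers and readers have medians of 0.19 and 0.47.

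Within GFPhigh cells the Prominin gate went with less Uhrf1. Against the ungated values above, 9.92 to 10.21, the Prominin+ GFPhigh arrays read 7.36 to 8.97 at 1415810_at, without overlap, a difference of −1.94 ± 0.36 (adjusted p = 0.000803). With the kit as a covariate the Uhrf1 difference was −2.05. That value rests on ungated replicate 1 alone, which read 10.21 and is the only ungated array labelled with the same kit. For 1415811_at the difference was −3.05 ± 0.36 (adjusted p = 1.78e-05), with a Prominin+ mean of 5.69 that was not above background. Of the S phase genes 9 of 15 were lower in Prominin+ than in ungated GFPhigh cells, beside 8.44% of all genes. Of the neuronal markers 8 of 13 were higher, beside 12.2% of all genes, and their part in the Uhrf1 difference was not tested. The 18S signal was 2110 to 6147 on Prominin+ GFPhigh arrays, against 114 to 658 on ungated GFPhigh arrays. Their Gapdh 3′ minus 5′ differences were 0.54 to 1.70 and −0.21 to −0.19. The part of RNA quality in the Uhrf1 difference was not tested either. In GFPlow cells the Uhrf1 difference at 1415810_at was 0.59 ± 0.38 and was not called (95% interval −0.22 to 1.39).

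At E18 Uhrf1 was lower than in E14 Prominin+ GFPhigh cells. E18 cells were sorted as GFP+, and E14 cells as GFPhigh or GFPlow. In all E18 comparisons here, age and GFP gate therefore cannot be told apart. Probe set 1415810_at read 6.63, 7.30, 7.22 and 7.14 in E18 GFP+ Prominin+ cells, against 7.36, 8.18, 8.13 and 8.97 in E14 GFPhigh Prominin+ cells. The groups did not overlap, with a gap between 7.30 and 7.36, and Uhrf1 fell by 1.09 ± 0.31 (adjusted p = 0.0227), 2.12-fold. Without E18 replicate 2 the Uhrf1 difference was −0.94 (adjusted p = 0.0715), and without E14 GFPhigh replicate 4 it was −0.82 (adjusted p = 0.0596). Against E14 Prominin+ GFPlow cells, the Uhrf1 difference of −0.41 ± 0.33 was not called (95% interval −1.14 to 0.31).

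Dnmt1 1422946_a_at read 9.61, 9.93, 9.76 and 9.98 in E18 cells, against 9.36, 9.79, 9.88 and 9.94 in E14 Prominin+ GFPhigh cells. These values overlapped, and the difference was 0.08 ± 0.16 (95% interval −0.28 to 0.43). Of the 20 member probe sets, 4 were lower in E18 than in E14 GFPhigh Prominin+ cells, 2 of Uhrf1 and 2 of Dnmt3a, and 0 were higher, beside 22.5% of all probe sets called and 11.5% lower. The second Uhrf1 set, 1415811_at, averaged 4.74 in E18 cells and 5.69 in E14 Prominin+ GFPhigh cells, neither above background, so it gives no second measured decrease of Uhrf1. Against E14 GFPlow Prominin+ cells 1 was lower and 0 were higher, beside 15.4% called and 7.61% lower. The 2 comparisons share the E18 arrays. Of the 8 maintenance partners 3 fell against GFPhigh cells: Hells by 1.31 ± 0.19, Lig1 by 1.06 ± 0.16 and Cdca7 by 0.97 ± 0.19. Of the 15 S phase genes 13 were lower, with a median of −1.01 beside −0.03 over all genes, of which 13.3% were called lower and 10.7% higher. In the same comparison 7 of 10 radial glia markers were lower and 2 higher (Slc1a3 and Fabp7), and 9 of 13 neuronal markers were higher and 1 lower (Bcl11b). The 18S signal was 569 to 910 on E18 arrays, against 2110 to 6147 on E14 Prominin+ GFPhigh arrays. The part of these in the Uhrf1 and Dnmt3a differences was not tested.

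**Figure D4:**
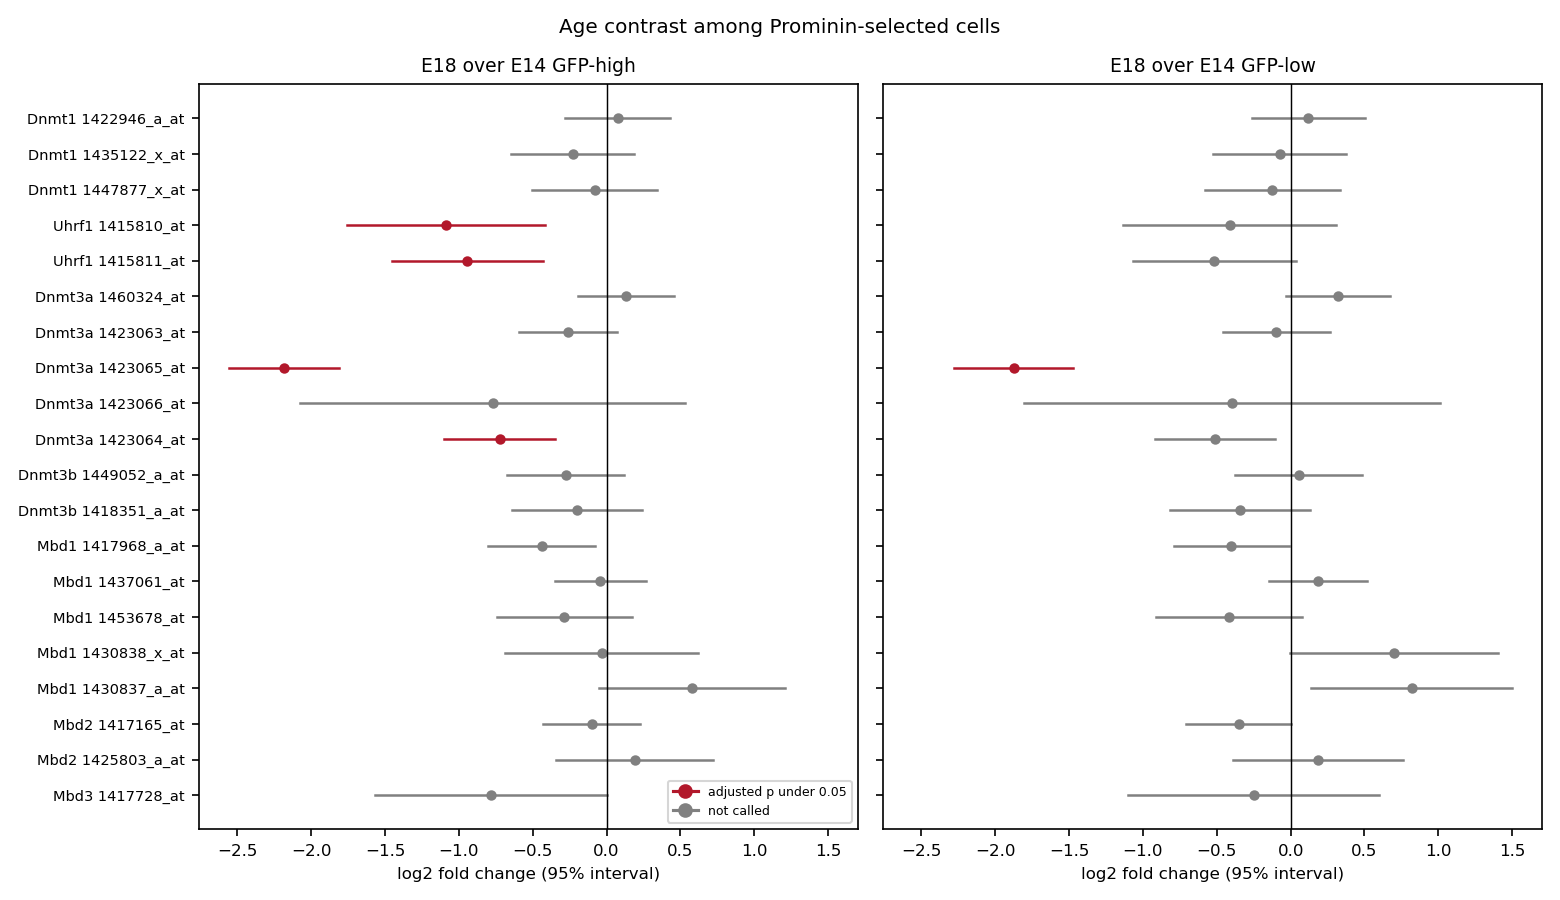
Log2 fold change of E18 GFP+ Prominin+ cells over E14 Prominin+ cells (x axis) with its 95% interval for each of the 20 member probe sets (rows), against GFPhigh cells on the left and GFPlow cells on the right. Red marks an adjusted p under 0.05: both Uhrf1 sets (1415811_at not above background in either group) and Dnmt3a 1423065_at and 1423064_at on the left, and Dnmt3a 1423065_at on the right.

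Dnmt3a, a de novo methyltransferase, was higher in ungated GFPhigh than in ungated GFPlow cells. Its highest-mean probe set, 1460324_at, read 8.49, 8.47 and 8.39 in ungated GFPhigh cells, against 7.47, 6.91 and 7.17 in ungated GFPlow cells. The groups did not overlap, and the difference was 1.26 ± 0.21 (adjusted p = 0.00844), 2.40-fold. A second set, 1423063_at, gave 1.13 ± 0.19 (adjusted p = 0.00946). The Dnmt3a sets 1423065_at and 1423064_at differed by 1.21 ± 0.32 and 0.92 ± 0.27 (adjusted p = 0.0530 and 0.0720), and 1423066_at by 0.43 ± 0.25 (adjusted p = 0.355).

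Among Prominin+ cells Dnmt3a 1460324_at read 8.16, 8.24, 8.34 and 8.23 in GFPhigh cells, against 7.88, 8.05 and 8.22 in GFPlow cells. The ranges overlapped slightly, and the difference was 0.19 ± 0.16 (95% interval −0.16 to 0.54, adjusted p = 0.727). The difference between the 2 GFP contrasts was −1.07 ± 0.25 (adjusted p = 0.0165), called in all 21 alternative analyses of it. For 1423063_at it was −0.97 ± 0.24 (adjusted p = 0.0267) and was called in 11 of 20. Between Prominin+ and ungated GFPhigh cells, Dnmt3a 1460324_at differed by −0.21 ± 0.17, which was not called. In GFPlow cells the Prominin+ level was higher by 0.86 ± 0.18 (adjusted p = 0.00287), but the kit differs between these 2 groups in every array, so gate and kit cannot be told apart. In the same comparison all 7 Cajal-Retzius markers were called higher, but 8 of 13 neuronal markers were lower and 0 higher. Of the S phase genes 8 of 15 were higher and 0 lower. Of the radial glia markers 5 of 10 were higher and 0 lower, and of 6 basal progenitor markers 5 were higher and 1 lower. Over all probe sets 10.1% were called higher and 9.53% lower. The part of these cell types in the Dnmt3a difference was not tested. With the kit effect taken from the GFPhigh arrays, the Dnmt3a difference was 0.81 and was not called. Only replicate 1 of the ungated GFPhigh arrays has the kit of the Prominin+ arrays.

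At E18 the Dnmt3a probe sets disagreed. Set 1460324_at read 8.10, 8.40, 8.37 and 8.61 in E18 cells, against 8.16 to 8.34 in E14 Prominin+ GFPhigh cells, and the overlapping groups differed by 0.13 ± 0.15 (95% interval −0.19 to 0.45). Set 1423065_at read 6.92, 7.10, 7.26 and 7.55 in E18 cells, against 9.69, 9.29, 9.24 and 9.33 in E14 Prominin+ GFPhigh cells. It fell without overlap by 2.19 ± 0.17 (adjusted p = 4.45e-06), and by 1.88 ± 0.19 (adjusted p = 6.03e-05) against E14 Prominin+ GFPlow cells. Set 1423064_at fell by 0.72 ± 0.17 against GFPhigh cells (adjusted p = 0.00911), and 1423063_at did not pass, at −0.26 ± 0.15 (adjusted p = 0.271).

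The high values of Dnmt3a 1423065_at stood on the 7 E14 Prominin+ arrays alone, at 8.93 to 9.69. The other 10 arrays read 5.95 to 7.83. Prominin+ GFPhigh cells were higher than ungated ones by 1.77 ± 0.24 and Prominin+ GFPlow cells by 2.67 ± 0.26 at this set (adjusted p = 6.03e-05 and 7.31e-06). These are also the arrays with 18S signals of at least 2110, and the part of RNA quality in this set's differences was not tested. Correlations between the 5 Dnmt3a sets over the 17 arrays ran from 0.17 to 0.81. Set 1423066_at was 5.06 on E18 replicate 3 and 8.25 to 8.47 on the other E18 arrays, and without that array its E18 difference from GFPhigh cells was 0.06 in place of −0.77, neither called.

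**Figure D5:**
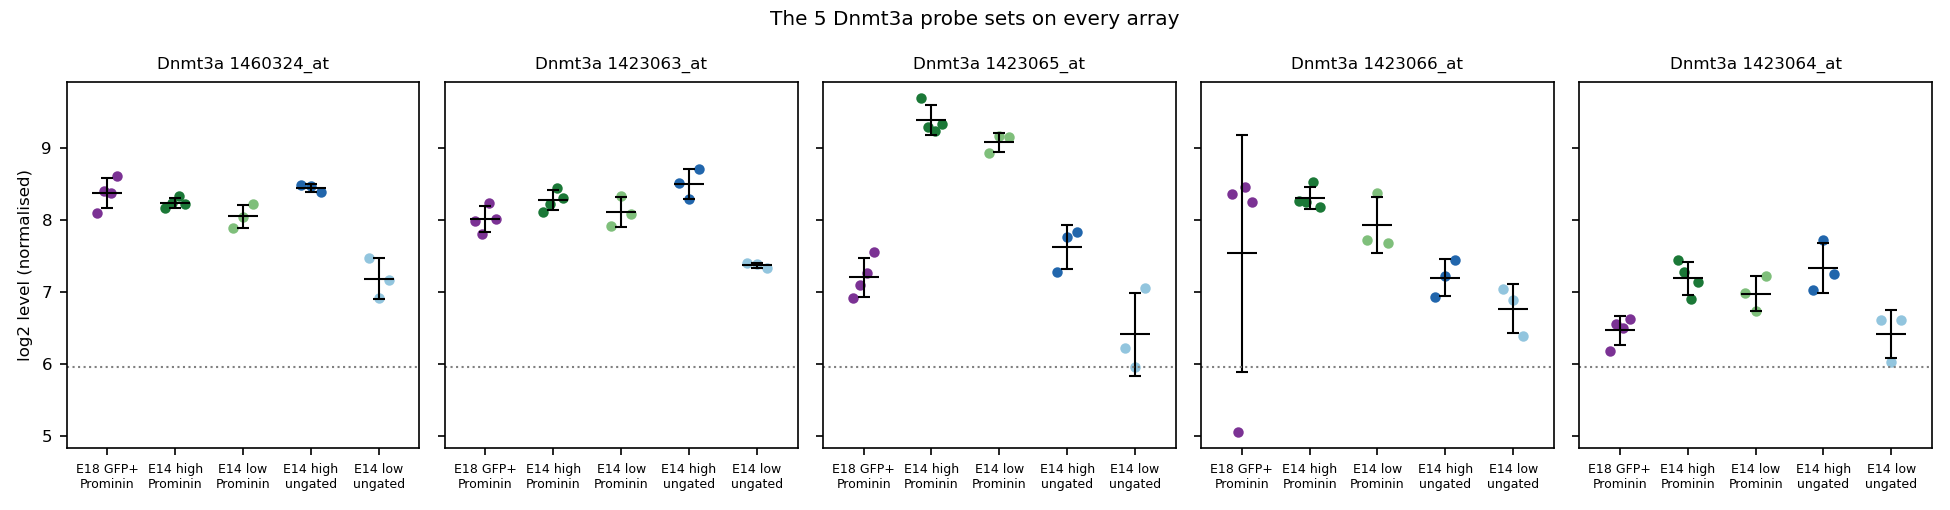
Log2 level of the 5 Dnmt3a probe sets (panels, y axis) by group (x axis), with 1 point per array, a bar at the mean, whiskers of 1 SD and a dotted line at the background level of 5.96. Set 1423065_at lies at 8.93 to 9.69 on the 7 E14 Prominin+ arrays and at 5.95 to 7.83 on the others, a step that 1460324_at does not have.

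Dnmt3b, the other de novo methyltransferase, was close to background, and higher in Prominin+ than in ungated E14 cells. Set 1449052_a_at read 6.92, 7.42, 7.24 and 6.98 in Prominin+ GFPhigh cells, against 5.69, 6.85 and 6.53 in ungated GFPhigh cells. It read 6.98, 6.75 and 6.69 in Prominin+ GFPlow cells, against 5.95, 5.77 and 6.24 in ungated GFPlow cells. Neither pair overlapped, and the differences were 0.79 ± 0.25 in GFPhigh cells (adjusted p = 0.0299) and 0.82 ± 0.26 in GFPlow cells (adjusted p = 0.0370). Without ungated GFPhigh replicate 1, the 5.69, the Dnmt3b difference in GFPhigh cells was 0.45 (adjusted p = 0.208), and the call in GFPlow cells was kept in 7 of 14 alternative analyses. The second set, 1418351_a_at, was called in the same direction in both, by 0.83 ± 0.25 and 1.61 ± 0.26, with ungated means of 5.36 and 4.72 that were not above background. With the kit as a covariate Dnmt3b 1449052_a_at differed by 1.45 in GFPhigh and 1.82 in GFPlow cells, and 1418351_a_at lost both calls. The 1.45 rests on ungated GFPhigh replicate 1 alone, the 5.69, the only ungated array with the kit of the Prominin+ arrays. The 1.82 takes the kit effect from the gap between that array and the other ungated GFPhigh arrays. In GFPlow cells each kit labelled 1 group, so gate and kit cannot be told apart there, and the higher 18S signals and Gapdh 3′ to 5′ differences of the E14 Prominin+ arrays move with both Dnmt3b comparisons. Their part was not tested. Neither Dnmt3b set was called by GFP or between E18 and E14 cells.

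Among the readers, no probe set was called between GFPhigh and GFPlow cells or between E18 and E14 cells. Mbd1 1417968_a_at averaged 8.39 ± 0.26 in E18 cells and 8.83 ± 0.16 in E14 Prominin+ GFPhigh cells (SD, n = 4 each), a difference of −0.44 ± 0.17 that was not called (adjusted p = 0.0811). It was called without E18 replicate 3, at −0.55 (adjusted p = 0.0300), and in 3 other alternative analyses. In ungated cells this Mbd1 set read 8.35, 8.59 and 8.15 in GFPhigh cells, against 8.25, 8.11 and 8.65 in GFPlow cells. They overlapped, with a difference of 0.02 ± 0.23 (95% interval −0.51 to 0.56). Mbd1 1437061_at averaged 8.25 in ungated GFPhigh and 7.58 in ungated GFPlow cells, without overlap, and its difference of 0.66 ± 0.22 was not called (adjusted p = 0.107). Of the 3 Mbd1 sets at background, 1430837_a_at was called lower in Prominin+ than in ungated cells, with differences of −0.94 ± 0.30 in GFPhigh cells (adjusted p = 0.0344) and −1.03 ± 0.32 in GFPlow cells (adjusted p = 0.0337). These Mbd1 calls lie between levels that are not above background, and they were kept in 6 of 13 and 3 of 12 alternative analyses.

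Mbd2 gave different pictures at its 2 sets, which correlated at 0.31 over the 17 arrays. Set 1417165_at had group means between 6.42 and 6.77, all overlapping their neighbours in order, and was called in 0 of the 7 comparisons (0 at an unadjusted p under 0.05 in limma). Its Prominin+ GFPlow arrays, at 6.73 to 6.81, did not overlap the Prominin+ GFPhigh arrays (6.13 to 6.72) or the E18 arrays (6.39 to 6.50). Between the Prominin+ GFPhigh and GFPlow groups 11.4% of all probe sets did not overlap. Set 1425803_a_at read 5.83, 4.85, 5.62 and 5.76 in Prominin+ GFPhigh cells, against 6.94, 6.83 and 7.25 in ungated GFPhigh cells. Prominin+ and ungated cells differed by −1.49 ± 0.26 (adjusted p = 0.000539) in GFPhigh and by −1.63 ± 0.28 (adjusted p = 0.000627) in GFPlow cells, without overlap. With the kit as a covariate the Mbd2 differences were −1.43 in GFPhigh and −1.53 in GFPlow cells, and the GFPlow call was lost. The −1.43 rests on ungated GFPhigh replicate 1 alone, the only ungated array with the kit of the Prominin+ arrays. In GFPlow cells the kit differed between the groups in every array, so gate and kit cannot be told apart there. The −1.53 takes the kit effect from the GFPhigh arrays. The higher rRNA signals and Gapdh differences of the Prominin+ GFPhigh and GFPlow arrays, given above, move with both Mbd2 comparisons. Their part was not tested. Prominin+ means were 5.51 and 5.52 and the E18 mean 5.70, none above background.

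Mbd3 was lower in Prominin+ than in ungated E14 cells. Its only probe set read 9.56, 7.79, 7.93 and 7.86 in Prominin+ GFPhigh cells, against 9.51, 9.08 and 9.72 in ungated GFPhigh cells. Prominin+ GFPhigh replicate 1 lay within the ungated range and the other 3 below it. The difference was −1.15 ± 0.35 (adjusted p = 0.0263), and −1.58 (adjusted p = 0.000396) without that array. Mbd3 read 7.60, 8.32 and 7.33 in Prominin+ GFPlow cells, against 9.18, 8.97 and 8.76 in ungated GFPlow cells. These did not overlap, and the difference was −1.22 ± 0.38 (adjusted p = 0.0309). The Mbd3 call was kept in 7 of 15 alternative analyses in GFPhigh and 8 of 14 in GFPlow cells, and with the kit as a covariate it was lost in both (−1.22 and −1.33). The −1.22 rests on ungated GFPhigh replicate 1 alone, the only ungated array with the kit of the Prominin+ arrays. In GFPlow cells the kit differed between the groups in every array, so gate and kit cannot be told apart there. The −1.33 takes the kit effect from the GFPhigh arrays. The higher rRNA signals and Gapdh differences of the E14 Prominin+ arrays, given above, move with both Mbd3 comparisons. Their part was not tested.

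Counted by probe set, the Prominin gate went with 3 higher and 5 lower members of 20 in GFPhigh cells, beside 21.9% of all probe sets called, 11.4% higher and 10.5% lower. In GFPlow cells 5 members were higher and 3 lower, beside 19.7% called, 10.1% higher and 9.53% lower. The difference between the GFP contrasts was called at 4 of 20, all lower, beside 5.13% called and 2.53% lower. With the kit as a covariate the member calls numbered 5 in GFPhigh cells and 2 in GFPlow cells, where all called probe sets fell to 863 in place of 6878. By gene, without that covariate, the members higher with the gate were Dnmt3b in GFPhigh cells, and Dnmt3a and Dnmt3b in GFPlow cells. Uhrf1 and Mbd3 were lower in GFPhigh cells and Mbd3 in GFPlow cells. For all members in GFPlow cells, gate and kit cannot be told apart. The kit covariate rests on ungated GFPhigh replicate 1, the only ungated array labelled with the kit of the Prominin+ arrays.

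Part of the NuRD complex, in which Mbd2 and Mbd3 are alternative subunits, differed between E18 and E14 Prominin+ cells. Of 12 other subunits 6 were lower in E18 than in E14 GFPhigh Prominin+ cells and 0 were higher, beside 13.3% of all genes called lower, with a list median of −0.53 beside −0.03 over all genes. The zinc-finger subunit Gatad2b fell by 2.05 ± 0.28, Mta3 by 1.16 ± 0.16, the remodelling ATPase Chd4 by 1.12 ± 0.21 and Cdk2ap1 by 0.67 ± 0.13 (adjusted p = 0.000236, 0.000199, 0.00190 and 0.00236). In E14 Prominin+ GFPhigh and GFPlow cells Gatad2b averaged 9.89 and 9.85, against 7.84 in E18 cells. Its ungated GFPhigh and GFPlow means were 8.05 and 8.21. The E14 Prominin+ arrays are those with the higher 18S signals, and the part of RNA quality in these differences was not tested. Against E14 GFPlow Prominin+ cells 3 subunits were lower (Mta3, Gatad2b and Cdk2ap1) and 1 was higher, Mta2 by 1.04 ± 0.30 (adjusted p = 0.0376), beside 8.72% of all genes called lower and 6.53% higher, and Chd4 at −0.32 ± 0.23 was not called. Mbd3 itself read 7.58, 7.54, 7.74 and 7.14 in E18 cells, below the lowest E14 Prominin+ GFPhigh value of 7.79, and its difference of −0.78 ± 0.36 was not called (adjusted p = 0.152). Without E14 GFPhigh replicate 1 the Mbd3 difference was −0.36 (adjusted p = 0.340). With the Prominin gate in GFPhigh cells 4 of 12 subunits were called, beside 12.2% of all genes called higher and 8.44% lower. Mta2 differed by −3.15 ± 0.30, Gatad2b by 1.84 ± 0.41, Hdac1 by −0.60 ± 0.17 and Rbbp7 by −0.55 ± 0.19. Of the 3 measured Mbd1 partners, the histone methyltransferase Setdb1 and the heterochromatin protein Cbx5 were lower in Prominin+ than in ungated cells, with differences of −1.07 ± 0.16 and −0.85 ± 0.18 in GFPhigh cells, and no partner was called by GFP or age. The labelling kit in part, and the 18S signals and Gapdh differences given above, move with the gate differences of these subunits and partners. Their part was not tested. In GFPlow cells gate and kit cannot be told apart.

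Of the genes that remove methylation, 3 of 6 measured were called between E18 and E14 cells. Tet1 and Tet2 oxidise methylcytosine, and Gadd45g is a growth-arrest gene linked to demethylation that also marks basal progenitors. In E18 cells Tet2 averaged 9.27, against 8.32 in E14 Prominin+ GFPhigh cells, and rose by 0.95 ± 0.18 (adjusted p = 0.00239). Tet1 fell by 0.75 ± 0.22 (adjusted p = 0.0263) and Gadd45g by 2.42 ± 0.22 (adjusted p = 1.11e-05), so 1 of 6 was higher and 2 were lower, beside 10.7% of all genes called higher and 13.3% lower. Of 8 genes known to be held silent by methylation, the glial genes Gfap and S100b among them, 0 were above background in any group. Limma called 0 of their 56 differences over the 7 comparisons, with 8 at an unadjusted p under 0.05. Their summed signal was 87.1 to 147 on E18 arrays, against 92.3 to 136 on E14 Prominin+ GFPhigh arrays.

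Over the 17 arrays, the genes whose levels ran most like Uhrf1 were Mad2l1 (Pearson r = 0.98), Rbl1 (0.97), Smc2 (0.97), Fignl1 (0.97) and Cdk2 (0.96). For Dnmt1 the closest was Ppil1 (0.91), for Dnmt3a Dtymk (0.94), for Dnmt3b Capn15 (0.92), for Mbd1 Sod2 (0.92), for Mbd3 Dcakd (0.97) and for Mbd2 Armc7 (0.77). Among the members, Dnmt1 and Uhrf1 correlated highest, at 0.70, and Dnmt3b and Mbd3 lowest, at −0.59. These values describe arrays that share 5 groups and 2 kits and carry no test.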

How the data were processed

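The values used are intensity values, 1 linear signal for each of 45101 probe sets on 17 arrays, as deposited. Per the labels, total RNA was isolated with a column kit with DNase treatment and labelled with biotin using 1 of 2 kits. How probes were summarised, and with which software and target, is not given in the sources used here. Between the outer percentiles each array has a mean of 150.0, as after global scaling, and the signals run from 0.0397 to 59926. The number of arrays limits the precision.

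After 64 control probe sets were left out, 34945 probe sets with 1 gene symbol were kept (932 carried several symbols and 9160 none). Of these, 34741 matched a RefSeq gene by Entrez identifier. A pseudocount of 16 was added, log2 was taken, and values were normalised by quantiles, since array medians differed by 0.60. Differences were tested with limma 3.58.1 (lmFit and eBayes) in R 4.3.3. The 3 contrasts among Prominin+ cells used the 11 Prominin+ arrays, the ungated contrast its 6 arrays, and the gate contrasts and the difference between GFP contrasts all 17. Figures used Python 3.11.15 and matplotlib 3.10.9. The fit was tested on simulated data. The highest-mean probe set stands for a gene, and in other lists up to 4 called genes with the lowest p, or up to 2 where none was called, were named. The members, lists and motifs were chosen with earlier results of these data known.

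No 2 arrays were identical (0 pairs). Arrays sharing a replicate number across groups correlated at −0.173 to 0.0528 after group means were removed (27 pairs), and were therefore not treated as pairs. Alternatives were the pseudocount, the scaling, dim probe sets left out, 1 test per gene, the replicate number as a block, the kit, a fit of all arrays, and each array left out. Some listed genes were not analysed here.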

Additional observations from a re-analysis of the deposited data

Results flagged for a closer look

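Among 40 sets of 4 arrays tested with Dixon's test, which weighs a gap against the range of its set, 3 held a flagged array. Chance gives about 1 in 20, so 3 of 40 is close to what chance gives. Dnmt3a 1423066_at was 5.06 in E18 replicate 3, against 8.25 to 8.47 on the other E18 arrays. Mbd2 1417165_at was 6.50 in E18 replicate 4, with the other 3 at 6.39, a small gap beside a narrow spread. Mbd3 1417728_at was 9.56 in E14 Prominin+ GFPhigh replicate 1, against 7.79 to 7.93 on the other 3.

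The GFPhigh minus GFPlow difference was itself unlike between Prominin+ and ungated cells, by limma's test of that difference, at 2 Uhrf1 and 2 Dnmt3a probe sets. The values, Prominin+ minus ungated, were −2.53 (Uhrf1 1415810_at), −2.36 (Uhrf1 1415811_at), −1.07 (Dnmt3a 1460324_at) and −0.97 (Dnmt3a 1423063_at). For Uhrf1 1415811_at 3 of the 4 groups were not above background.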

How the results depend on the processing

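Of 140 member results 29 were called. Over 2108 alternative values none of the called ones changed sign, 69 lost a call, 32 gained one and 2007 kept their side of the threshold, and 93 values that were never called changed sign. Probe set counts called, in order from the GFP contrast among Prominin+ cells (196), were 66 with a pseudocount of 1, 558 with 64, 442 without the dimmest 40%, 300 with 1 test per gene and 9 to 190 with an array left out. For GFP in ungated cells (4172) they were 2588 with a pseudocount of 1, 6318 in a fit of all 17 arrays, 2449 with the kit as a covariate and 2449 to 3996 with an array left out. For E18 against GFPhigh (7860) and GFPlow (5392), 1 test per gene gave 4697 and 2972, and leaving out an array gave 6375 to 7598 and 3756 to 5166. For the gate in GFPhigh (7651) and GFPlow cells (6878), 1 test per gene gave 3833 and 3532, the kit gave 3716 and 863, and leaving out an array gave 5652 to 6947 and 4900 to 7423. For the difference between GFP contrasts (1793), leaving out an array gave 1312 to 2290.

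Member probe sets called among ungated cells by GFP (4) were 10 with a pseudocount of 64, 8 without the dimmest 40%, 2 with 1 test per gene, 9 in the fit of all 17 arrays and 4 to 6 with an array left out. For E18 against GFPhigh (4) they were 1 with 1 test per gene and 3 to 6 with an array left out. Against GFPlow (1) they were 2 without the dimmest 40%, 0 of 7 with 1 test per gene (2 at an unadjusted p under 0.05 in limma) and 1 to 2 with an array left out, the 2 without E18 replicate 3. For the gate in GFPhigh (8) they were 5 with a pseudocount of 1, 3 with 1 test per gene, 5 with the kit and 5 to 8 with an array left out. For the gate in GFPlow (8) they were 3 with 1 test per gene, 2 with the kit and 5 to 7 with an array left out. For the difference between GFP contrasts (4) they were 2 with 1 test per gene and 3 to 5 with an array left out. One test per gene leaves 7 members, and the cause of the other changes was not tested.

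With the replicate number as a block, the counts called were 0 for GFP among Prominin+ cells (limma, 3356 at an unadjusted p under 0.05), 2646 for GFP in ungated cells, 4858 and 1958 for E18 against GFPhigh and GFPlow. Member probe sets called were then 2 for E18 against GFPhigh and 4 for the gate in GFPhigh cells. The arrays share only a number, and the number did not pair them.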

Other observations

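Other methyl-CpG readers and the supply of methyl groups were measured beside the 7 genes. Zbtb38, a zinc-finger reader of methylated DNA, averaged 8.43 in E18 cells, against 7.55 in E14 Prominin+ GFPhigh cells, and rose by 0.88 ± 0.25 (adjusted p = 0.0217). Mbd4, a glycosylase with a methyl-CpG-binding domain, fell by 0.76 ± 0.21 (adjusted p = 0.0177). Zbtb4, another zinc-finger reader, averaged 7.63 in Prominin+ GFPhigh cells and 5.87 in ungated GFPhigh cells, where it was not above background (adjusted p = 0.00117). The catalytically inactive cofactor Dnmt3l was not above background in any of the 5 groups. Of the 6 measured genes of this list, limma called 0 by GFP in either contrast, with 1 in each at an unadjusted p under 0.05.

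Ahcy, which clears the S-adenosylhomocysteine left after methylation, averaged 8.80 in E18 cells, against 9.88 in E14 Prominin+ GFPhigh cells, and fell by 1.08 ± 0.18 (adjusted p = 0.000810). Methionine synthase, Mtr, fell by 1.49 ± 0.21 (adjusted p = 0.000300) in the same comparison, to an E18 mean of 5.77 that was not above background. In ungated cells Ahcy was higher in GFPhigh than in GFPlow cells by 0.96 ± 0.19 (adjusted p = 0.0163). Tet1 and Tet2 were higher in Prominin+ than in ungated GFPhigh cells, by 1.41 ± 0.25 and 1.23 ± 0.25 (adjusted p = 0.000563 and 0.00165). All Prominin+ arrays and 1 of the 3 ungated GFPhigh arrays share a labelling kit, and its part in the Tet and Zbtb4 differences was not tested.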
